A study of Rattus norvegicus with 27 samples.

Results

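Small stretches of DNA with little methylation, lying apart from the large unmethylated CpG islands, were examined in the renal outer medulla of Dahl salt-sensitive (SS) rats, which are inbred and become hypertensive when fed much salt. Methylation was measured by reduced representation bisulfite sequencing (RRBS), which reads CpGs near cut sites of the enzyme MspI and counts methylated reads (C) and unmethylated reads (T) at each CpG. The autosomes were divided into bins of 500 bp, and CpGs with at least 10 reads in all 12 rats of the second experiment were kept (common sites). A bin was a member if it held 3 to 9 common sites, had a mean level under 10% over these rats, and lay more than 2 kb from any bin of 10 or more common sites with a level under 10% (a dense low bin). The rule gave 4661 bins with 25263 common sites, of 85028 bins that met the site and distance conditions at any level (isolated bins) and of 189815 bins with a common site. The levels of the second experiment chose the bins, so those levels are given as a description.

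The 27 libraries, each from 1 rat, form 7 groups. In the first experiment, MCW_LS rats of the colony named MCW (n = 3) ate the purified diet AIN-76A with 0.4% NaCl until 8 weeks of age, and MCW_HS rats (n = 4) were moved at 6 weeks to AIN-76A containing 4% NaCl and kept on it for 14 days. CRL_HS rats, of the colony named CRL (n = 4), had that 4% NaCl diet at the same age and for the same 14 days. CRL_LS rats (n = 4) ate the non-purified diet 5L2F with 0.75% NaCl until 8 weeks of age, so within CRL the salt content and the base diet cannot be told apart. In the second experiment all 12 rats were of the MCW colony, per the labels, and had the same kidney surgery. PRE_LS rats (n = 4) were sampled on 0.4% NaCl before any GapmeR (an antisense oligonucleotide) or high salt was given. The HS_SCR group (n = 4) was given a scrambled GapmeR into the kidney, at 4 mg/kg, and then ate 4% NaCl over 7 days. In the HS_DT group (n = 4) the GapmeRs targeted Dnmt3a and Tet3, at 2 mg/kg each, and the labels give their time on 4% NaCl as 7, with no unit stated. The outer medulla is a mixed tissue, so a change in the mix of cells and a change within a cell type cannot be told apart. Total counts per library were 35040331 to 95102303 in the first experiment and 174400859 to 257658964 in the second.

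In mammalian DNA most CpGs are methylated, and the common exceptions are CpG islands at gene starts and sites where transcription factors bind. Dnmt3a adds methyl groups to DNA without a template, and Tet3 oxidises methylcytosine as a step toward its removal. A short unmethylated stretch away from an island can be a promoter of lower CpG density or a distal regulatory element.

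To give examples in sequence, the promoters of 5 genes that overlap members are printed here. Promoters were found at 343 members (7.36%), so the examples do not stand for members in general. No rn5 sequence was used, so RefSeq promoter windows (250 bases before to 50 after a start, assembly GRCr8) were placed on the listed rn5 positions by the spacing of their CpGs. Of 18166 autosomal windows with at least 6 CpGs, 7967 fitted at exactly 1 place on their own chromosome, and 11 did when searched on the next chromosome. Each line gives the 250 bases before the start on the strand of the gene, 5′ to 3′, and capitals mark the CpGs measured inside a member.
Ptges: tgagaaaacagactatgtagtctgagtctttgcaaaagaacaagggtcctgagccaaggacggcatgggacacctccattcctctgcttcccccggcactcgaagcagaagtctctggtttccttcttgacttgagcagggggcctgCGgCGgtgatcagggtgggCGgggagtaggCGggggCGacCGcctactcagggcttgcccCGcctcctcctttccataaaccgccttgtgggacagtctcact
Ephx1: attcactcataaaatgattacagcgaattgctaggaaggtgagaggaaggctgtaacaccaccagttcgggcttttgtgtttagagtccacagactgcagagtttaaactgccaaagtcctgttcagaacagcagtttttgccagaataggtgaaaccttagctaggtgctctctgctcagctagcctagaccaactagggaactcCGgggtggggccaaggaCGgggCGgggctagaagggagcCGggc
Cyp2j4: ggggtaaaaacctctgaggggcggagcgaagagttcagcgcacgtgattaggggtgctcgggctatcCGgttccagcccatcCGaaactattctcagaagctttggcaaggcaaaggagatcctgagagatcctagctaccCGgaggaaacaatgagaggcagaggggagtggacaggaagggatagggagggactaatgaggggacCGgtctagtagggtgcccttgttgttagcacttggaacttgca
Esr1: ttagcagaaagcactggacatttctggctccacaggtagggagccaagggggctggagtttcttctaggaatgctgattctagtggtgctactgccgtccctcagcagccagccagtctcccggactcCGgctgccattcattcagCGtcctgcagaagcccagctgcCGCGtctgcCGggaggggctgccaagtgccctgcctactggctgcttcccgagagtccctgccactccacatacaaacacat
Epo: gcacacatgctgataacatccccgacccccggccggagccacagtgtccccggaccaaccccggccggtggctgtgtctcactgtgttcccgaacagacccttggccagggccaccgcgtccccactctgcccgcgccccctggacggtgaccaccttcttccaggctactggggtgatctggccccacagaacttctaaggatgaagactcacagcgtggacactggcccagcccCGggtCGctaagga
The genes were picked from the members' promoters for what they are known to do and not for their values. Ptges makes prostaglandin E2, Cyp2j4 forms epoxides of lipids, Ephx1 breaks epoxides down, and Esr1 is an oestrogen receptor. Epo encodes erythropoietin, the hormone that interstitial cells of the kidney release in low oxygen. Ptges and Ephx1 lie on the minus strand, as does Cyp2j4, while Esr1 and Epo lie on the plus strand.

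The level of the isolated bins had a low peak apart from the main peak. Between 0 and 5% lay 3694 bins and between 5 and 10% lay 967, while 899 lay between 10 and 15% and the fullest class, 70 to 75%, held 11359. The median member level was 1.16%, and 2213 members (47.5%) were under 1%. The median level of the other 80367 isolated bins was 68.4%. The members made up 5.48% of isolated bins, from 4.33% on chromosome 19 to 7.22% on chromosome 10. On the X chromosome, which the rule leaves out, 38 of 2589 isolated bins (1.47%) met the same conditions.

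**Figure D1:**
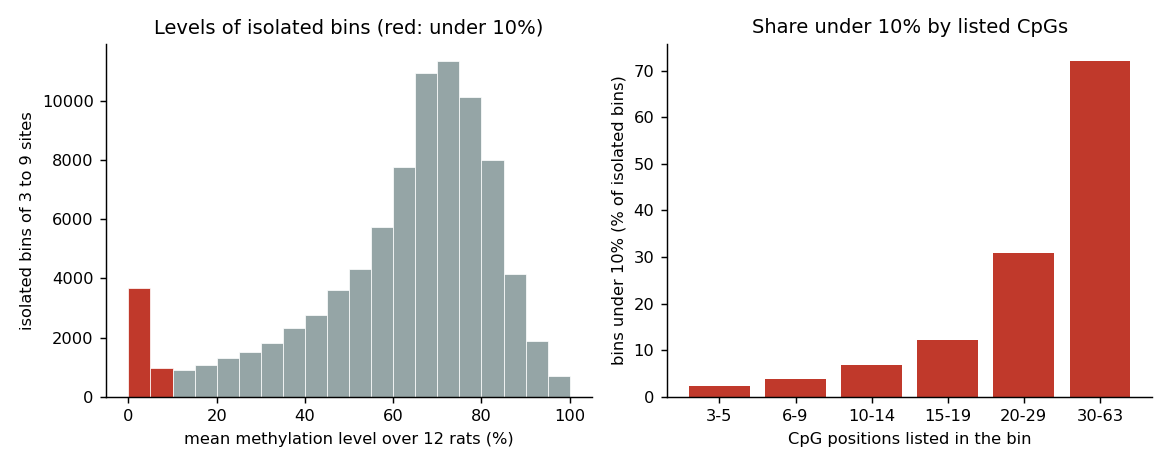
Left, number of isolated bins by mean methylation level over the 12 rats of the second experiment, in classes of 5 points, with the members in red. Right, percentage of isolated bins that are members, by the number of CpG positions listed in the bin, rising from 2.26% at 3 to 5 positions to 72.1% at 30 to 63.

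Most members were not poor in CpGs. Few sites passed the depth condition, with a median of 5 per member, but the table listed a median of 11 CpG positions per member at any depth, against 7 in the other isolated bins. Of the members, 1868 (40.1%) had 9 or fewer listed positions and 2793 (59.9%) had 10 or more. The 971 members with 20 or more listed positions were 20.8% of the members, and 2.02% of the other isolated bins had as many. The data therefore go against the name CpG-poor for most of these bins, and they are called isolated low bins here. The share of isolated bins that were members rose with listed positions, from 2.26% at 3 to 5 positions through 6.80% at 10 to 14 to 30.9% at 20 to 29 and 72.1% at 30 to 63. The median member level fell over the same classes from 3.17% to 0.108%.

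Some members were pieces of longer low stretches. Members lay singly in 3290 cases, and the other 1371 lay in 654 runs of 2 to 4 adjacent bins. In 489 of these runs the bins together held 10 or more common sites, which took in 1041 members (22.3%). In 407 runs, with 866 members (18.6%), 10 or more of these sites lay within 500 bp, so a bin placed there would have held as many sites as a dense bin. The promoter of Mars1, a methionyl-tRNA synthetase, had 15 measured CpGs spread over 2 members, all between 0 and 0.241%. Nfkbiz, a regulator of NF-kappaB target genes, had 13 such CpGs between 0 and 0.239%, and Mitf, a transcription factor, had 12 between 0 and 0.167%. The run with the most sites at the lowest level, chr8:127233001-127235000 (rn5, as all positions here), had 24 sites in 4 bins and a mean level of 0.0973%. A run of the same size at chr10:19801001-19803000, which holds the start of Slit3, a secreted guidance protein, had 2.36%, and another at chr15:29423001-29425000 had 5.75%.

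Within members the CpGs were low nearly throughout, which the rule in part ensures. It chose bins by a low mean level in these same rats of the second experiment, and this limits how many sites of a member can be high. The counts of members with a high site are therefore a description and not a test of evenness. Of the member sites, 6174 (24.4%) had no methylated read in any of the 12 rats. In 185 members (3.97%) at least 1 site was over 20%, and in 6 a site was over 50%. The highest was 91.0%, in chr1:108569501-108570000, whose level over all 5 sites was 5.45% ± 1.36 (SD, n = 12). In 158 members no methylated read was seen at all, over 705 to 12134 reads per member, and a count of 0 allows up to 0.426% in the member with the fewest reads. Of these, 73 were measured in the first experiment, where 2 were again at 0 and the highest was at 1.10%. Such intervals and limits cover counting error only, since reads without molecular identifiers are not independent molecules.

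Near the threshold the values were continuous. The members just inside it were chr1:205194001-205194500, at 9.997% and with its centre 413 bp from the start of Tbx6, chr12:11570001-11570500, at 9.991%, and chr6:68920001-68920500, at 9.990%. The isolated bins just outside were chr3:12288501-12289000 at 10.002% and chr12:24291501-24292000 and chr20:6848001-6848500, both at 10.005%. The second of these borders the member at Epo.

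The first experiment gives levels in rats that the rule did not use. There 2044 members had at least 3 sites with 10 or more reads in all 15 rats, and 1982 of them (97.0%, exact 95% binomial interval 96.1 to 97.7%) were under 10%. Of the other isolated bins measured there, 91 of 20338 (0.447%) were under 10%. All 1152 measured members under 1% in the second experiment were under 10% in the first, with a highest level of 2.59%. Of the 290 measured members between 5 and 10%, 231 (79.7%) were under 10%. The median member level was 0.788% in the first experiment, and across the 2044 bins the levels of the 2 experiments had a Pearson r of 0.894 and a Spearman rho of 0.888. These bins share libraries and strain and are not independent, so the correlation is a description. For the same reason the binomial interval, which counts bins as independent, does not measure the spread over rats.

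**Figure D2:**
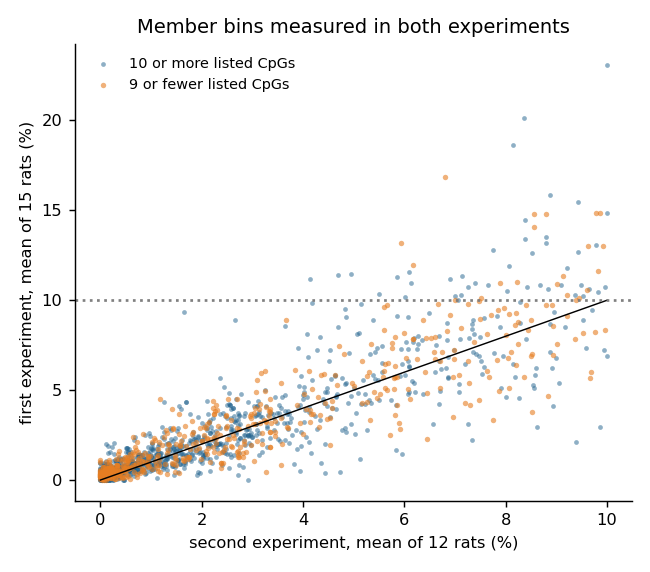
Mean level of each of 2044 members in the second experiment (x axis, %, 12 rats) and in the first (y axis, %, 15 rats), coloured by listed CpG positions. The solid line marks equal levels and the dotted line 10%, and 62 points lie on or above the dotted line.

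In the first experiment 62 members were at 10% or more, and 2042 of 2044 were under 20%. The highest, chr16:6626501-6627000, had 23.1% ± 6.18 (SD, n = 15) in the first experiment. Its values were 18.8, 22.1 and 20.8% in MCW_LS, 13.2, 26.0, 31.4 and 32.1% in MCW_HS, 20.9, 26.7, 16.5 and 26.2% in CRL_LS, and 23.3, 33.8, 18.1 and 16.7% in CRL_HS. In the second experiment PRE_LS rats had 11.7, 13.0, 14.6 and 11.8%, HS_SCR rats 16.02, 5.37, 7.84 and 5.70%, and HS_DT rats 6.30, 8.97, 4.55 and 14.0%. The first experiment's values lay above most of the second's, and the sites measured differed, with 3 in the first and 4 in the second. The next highest was chr5:154613501-154614000 at 20.1% ± 5.45 (SD, n = 15).

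Among bins of 1 to 9 sites that are not members, the mean level in the second experiment was 16.5% at 0.5 kb from a member, 38.7% at 1 kb and 46.7% at 2 kb, and 44.8 to 46.7% from 2.5 to 5 kb. In the first experiment it was 20.3% at 0.5 kb, 40.2% at 1 kb and 49.3% at 2 kb, and 37.3 to 42.4% from 2.5 to 5 kb. A mean over single sites, those in dense and member bins included, was also taken in the second experiment. It was 8.16 to 9.07% at 0.5 kb, 25.1 to 25.6% at 1 kb and 39.5 to 40.2% at 2 kb. From 2.5 to 5 kb, where dense low bins are again allowed, it was 15.9 to 23.1%. This mean weights bins by their sites, whereas the values above weight each bin equally, so the 2 series are different measures. Dense low bins within 2 kb were barred by the rule, so the flanks are a description. The median distance from a member to the nearest dense low bin was 31.5 kb.

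**Figure D3:**
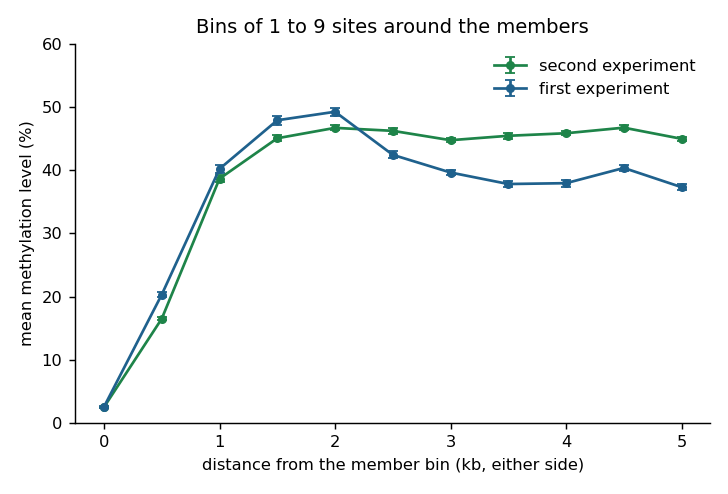
Mean methylation level (y axis, %) of bins of 1 to 9 sites by distance from a member on either side (x axis, kb), with members at 0. A bin near several members is counted at each of its distances. Points are means over rats and bars the SD over 12 rats (second experiment) or 15 rats (first experiment), and in both the level is near 40% at 1 kb.

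Some members lay at a placed promoter, that is, had at least 3 measured sites in its window. Of the members, 343 (7.36%) did, at 327 genes, against 177 (0.220%) of the other isolated bins and 5361 (25.8%) of the dense low bins. Since fewer than all promoters were placed, these shares are lower limits. The share was 2.84% of members with 9 or fewer listed positions and 10.4% of those with 10 or more. A window was placed only if most of its CpGs were listed, which favours bins with many listed positions. The rise with listed positions is therefore in part built in by the placement rule and is a description. The other isolated bins had fewer listed positions than the members, so the rule also enters that contrast. How much of either contrast it accounts for was not tested. The promoter windows at members held a median of 17 CpGs, against 27 at dense low bins and 23 in all placed promoters. In all promoters of the table, which include windows that could not be placed, the median was 7. Of the CpGs in the windows at members, a median of 16 were listed and 6 were measured. The letters GGGCGG, the GC box bound by SP and KLF factors, were found on either strand in 57.0% of promoter windows at members, 76.4% at dense low bins and 33.1% of all 33469 promoters. CCGGAAG, a core of ETS factor sites that contains the MspI site CCGG, was in 27.6%, 22.6% and 8.75%. CCGG itself was in 99.7%, 100% and 51.4%. In all placed promoters GGGCGG was in 67.7%, CCGGAAG in 20.5% and CCGG in 98.0%. A match of letters is a description and not a site of binding.

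Few genes of the kidney lists could be related to a member. The lists held 130 genes for thick ascending limb, collecting duct, proximal straight tubule, vessel and stroma, leukocytes, DNA methylation, renal transcription factors, and salt and pressure. Of these, 32 had a placed promoter, and 0 of the 32 had a member within 500 bp, measured from the centre of the bin as all distances to starts here. Over all 7209 genes with a placed promoter, 7.12% had one that near. Within 5 kb a member lay near 3 of the 32 starts, against 9.71% of all placed genes, and within 20 kb near 6, against 19.03%. For the other genes of the lists nearness was not measured. The member 3.74 kb from Wt1, a transcription factor of kidney development, had 3.76% ± 1.58 (SD, n = 12), the member 4.18 kb from Flt1, a VEGF receptor of endothelium, had 6.00% ± 4.60, and the member 4.71 kb from Sim1, a transcription factor, had 4.52% ± 1.91.

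The member with the fewest methylated reads among the chosen promoters was at Cst3, the gene of cystatin C, a plasma marker of filtration. No methylated read was seen among 1505 reads in 12 rats, which allows up to 0.199%. At Ptges, 2 of 1608 reads were methylated, both in 1 HS_DT rat, whose level was 1.43% while the other 11 rats were at 0. At Ptges, 2 of the 7 sites had counts equal to those of another position in every library. That position may be a neighbouring CpG on the same reads, which was not tested. Ephx1 had 0.135% ± 0.241 (SD, n = 12) in the second experiment and 0.684% ± 1.07 (SD, n = 15) in the first, and Cyp2j4 had 0.476% ± 0.591 (SD, n = 12). Shroom3, an actin regulator of epithelial and podocyte shape, had 1.11% ± 1.68 (SD, n = 12). PRE_LS rats were all at 0 there, HS_SCR rats at 2.86, 0, 5.77 and 0.797%, and HS_DT rats at 1.02, 0.714, 1.19 and 1.02%. The sites of this member had 10 to 40 reads per rat, so these values rest on few methylated reads.

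Slc9a3 encodes NHE3, the sodium-proton exchanger of the proximal tubule and thick ascending limb, and its start lies inside the member chr1:33201501-33202000, 11 bp from the centre. This member had 9 measured of 26 listed CpGs and 1.47% ± 0.639 (SD, n = 12) in the second experiment and 0.707% ± 0.621 (SD, n = 15) in the first. PRE_LS rats had 1.20, 1.63, 2.02 and 0.571%, HS_SCR rats 2.29, 2.18, 1.93 and 0.560%, and HS_DT rats 0.767, 1.18, 2.12 and 1.20%. MCW_LS rats had 0.231, 1.52 and 1.55%, MCW_HS rats 0.932, 1.92, 0.946 and 0%, CRL_LS rats 0.909, 0.546, 0.990 and 0%, and CRL_HS rats 0, 0.623, 0.435 and 0%. The groups overlapped in both experiments. Its 9 CpGs, 17 to 108 bases inside the gene, lay between 0.342 and 2.25% in the second experiment.

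At Epo the member was uneven from CpG to CpG, and the unevenness was seen in both experiments. The member chr12:24291001-24291500 had 9.69% ± 2.24 (SD, n = 12) in the second experiment and 9.43% ± 3.01 (SD, n = 15) in the first. In the second experiment the CpG 14 bases before the start had 0.470%, that 9 bases before it 3.43%, and those 2, 15 and 17 bases after it 6.92, 14.5 and 19.95%. The same CpGs in the first experiment had 0.732, 2.15, 4.82, 14.8 and 20.5%. The next CpG, 33 bases after the start and in the neighbouring bin, was at 3.75% in the second experiment and 2.94% in the first. Sites this close are read on the same fragments and are not independent. The bin level was 10.3% ± 3.78 (SD, n = 4) in MCW_HS and 10.5% ± 4.10 (SD, n = 3) in MCW_LS, and 8.43% ± 2.59 (SD, n = 4) in CRL_HS and 8.82% ± 2.50 (SD, n = 4) in CRL_LS. HS_SCR rats had 11.2, 10.2, 13.1 and 8.29%, PRE_LS rats 6.44, 9.84, 8.55 and 8.05%, and HS_DT rats 7.37, 12.7, 8.11 and 12.4%, and the 3 groups overlapped. Esr1, whose member had 5 CpGs between 73 and 122 bases before the start, had 4.48% ± 1.57 (SD, n = 12) in the second experiment and 5.14% ± 3.68 (SD, n = 15) in the first, where 1 MCW_HS rat had 16.9%.

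**Figure D4:**
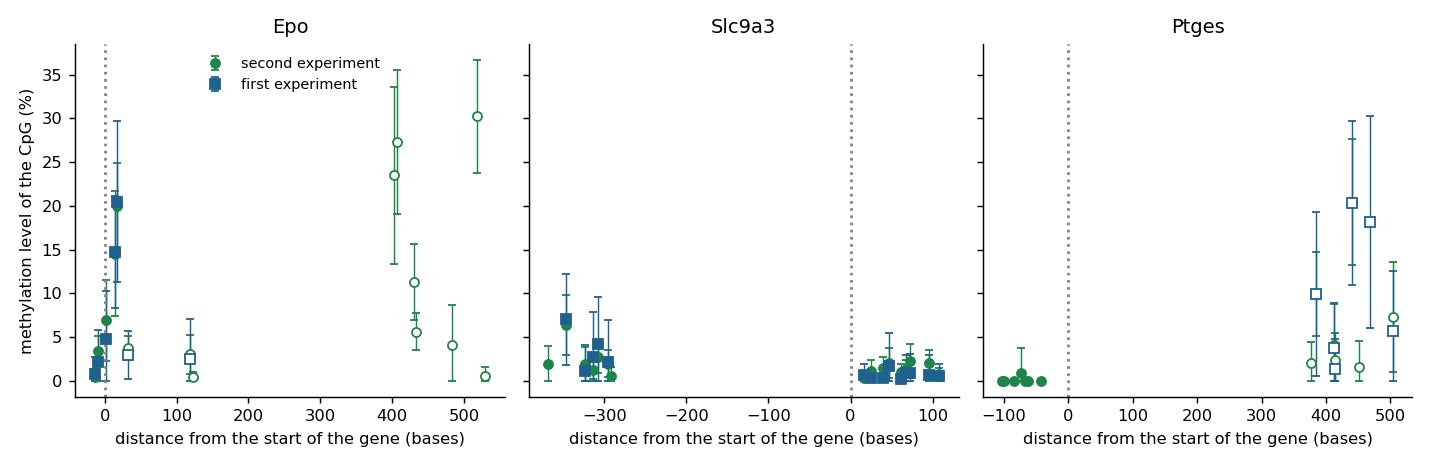
Methylation level (y axis, %) of single CpGs by distance from the start of Epo, Slc9a3 and Ptges (x axis, bases, positive inside the gene), as means with bars of 1 SD over rats, cut at 0. Filled points lie in members and open points in other bins, and the rise at Epo from 0.470% at the first filled point to 19.95% at the last is seen in both experiments.

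Within each experiment the mean level over the members differed little between groups. Averaged over all 4661 members, PRE_LS rats had 2.47% ± 0.0410, HS_SCR rats 2.54% ± 0.116 and HS_DT rats 2.44% ± 0.0440 (SD, n = 4 each). The 4 HS_SCR rats had 2.61, 2.52, 2.64 and 2.38%, so this group spanned the others. Over the 2044 members measured in the first experiment it was 2.12% ± 0.0920 (SD, n = 3) in MCW_LS, and 2.28% ± 0.165 in MCW_HS, 2.04% ± 0.0921 in CRL_LS and 2.15% ± 0.105 in CRL_HS (SD, n = 4 each). The values of the 2 experiments come from different bins and are not compared. High salt minus low salt was 0.16 ± 0.098 points (SE) in MCW and 0.10 ± 0.070 points in CRL, and HS_SCR minus PRE_LS was 0.07 ± 0.062. With at least 20 reads per site the MCW difference was 0.0197 points, and leaving out each rat in turn it ranged from 0.09 to 0.22 points. The difference between the colonies on high salt, 0.13 ± 0.098 points, was -0.0148 points at 20 reads, and the difference of the salt effects, 0.06 ± 0.12 points, was -0.15 points. HS_DT minus HS_SCR was -0.10 ± 0.062 points. No p is given for these means, since the bins were chosen with results known. Split by CpG content, the 566 measured members with 9 or fewer listed positions differed by 0.27 ± 0.10 points for MCW salt and 0.29 ± 0.10 points for CRL salt, and the 1478 with 10 or more by 0.12 ± 0.12 and 0.03 ± 0.061 points. Only the first class is poor in listed CpGs. In it, MCW_LS exceeded CRL_LS by 0.21 ± 0.053 points, in 12 of 12 pairs of rats, which share rats. In members with 10 or more listed positions that difference was 0.02 ± 0.097 points, in 6 of 12 pairs. In the other isolated bins it was 0.13 ± 0.20 points, in 7 of 12 pairs. These 2 groups also differ in base diet and NaCl content, and the split was made after the data were examined.

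The salt difference was larger in the members between 5 and 10%. In these 290 bins MCW_LS rats had 7.38, 7.20 and 7.78%, and MCW_HS rats 7.90, 8.12, 8.56 and 8.63%, so the groups did not overlap. CRL_LS rats had 7.05, 7.14, 6.87 and 7.68%, and CRL_HS rats 7.76, 7.75, 8.11 and 7.87%, again without overlap. The differences were 0.85 ± 0.25 points (SE) and 0.69 ± 0.19 points. With at least 20 reads per site, 87 of these bins were left, the MCW difference was 0.20 ± 0.33 points with high salt above in 9 of 12 pairs of rats, and the CRL difference was 1.05 ± 0.29 points with 15 of 16 pairs. The other isolated bins moved the same way, by 0.54 ± 0.19 points in MCW and 0.50 ± 0.23 points in CRL at levels of 67.3 to 68.0%. In the second experiment HS_SCR minus PRE_LS was 0.18 ± 0.12 points over 967 such members, with HS_SCR above in 12 of 16 pairs.

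**Figure D5:**
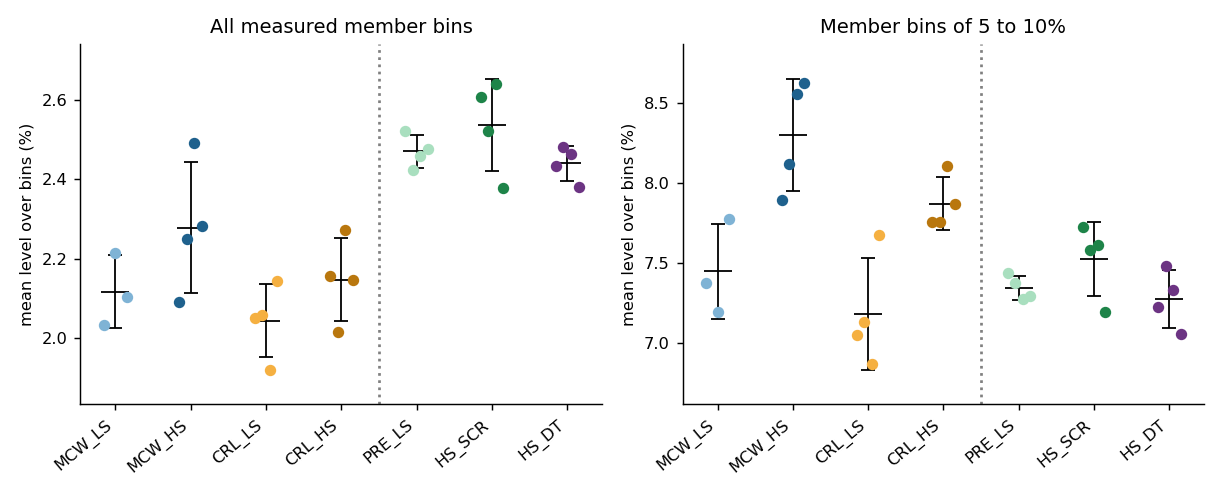
Mean methylation level (y axis, %, not starting at 0) of each rat over all measured members (left) and over members between 5 and 10% (right), by group. Points are rats, the horizontal mark and bar are mean and SD, and the dotted line divides the first experiment (4 groups) from the second (3 groups), whose bins differ.

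No member passed the test in any of 8 comparisons. A quasi-binomial model was fitted to the counts of each bin, with Benjamini-Hochberg adjustment across every bin tested and a call at an adjusted p below 0.05. Only bins with a pooled level of 1 to 99% were tested, which kept 949, 924, 942, 935 and 934 of the 2044 members in the 5 comparisons of the first experiment and 2441, 2422 and 2422 of the 4661 in the 3 of the second. The share of all bins called was 0% in each comparison, and limma on log2 ratios also called 0 members. The smallest adjusted p of a member was 0.705 for MCW salt and 0.597 for CRL salt. It came to 0.586 and 0.607 for MCW against CRL on low and on high salt, and 0.747 for the difference of the salt effects between colonies. For the second experiment the values were 0.9997 for HS_SCR against PRE_LS, 0.9997 for HS_DT against HS_SCR and 0.661 for HS_DT against PRE_LS.

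At an unadjusted p below 0.05, members passed more often than all bins, as did other bins under 10% and bins over 90%. For MCW salt 102 members (10.7%) did, against 6.31% of all bins, and for CRL salt 84 (9.09%) against 6.27%. For the colonies on low salt it was 93 (9.87%) against 6.1%, on high salt 90 (9.63%) against 6.42%, and for the difference of salt effects 76 (8.14%) against 5.5%. For HS_SCR against PRE_LS it was 223 (9.14%) against 4.94%, for HS_DT against HS_SCR 194 (8.01%) against 4.6%, and for HS_DT against PRE_LS 211 (8.71%) against 5.38%. Other bins under 10% passed in 7.09 to 10.4% of cases, bins over 90% in 6.28 to 8.23% and bins of 10 to 90% in 4.26 to 5.75%. The higher share was thus seen at both ends of the range of levels. The members' share was above that of other bins under 10% in 6 of the 8 comparisons, which share rats.

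Counts of bins whose groups do not overlap gave a similar picture. For MCW salt 39 members were above and 26 below without overlap (6.85%, against 5.93% of all bins, of which 3.48% above). For CRL salt 15 were above and 11 below (2.81%, against 3.03%, of which 1.9% above). For the colonies 33 and 23 members did so on low salt (5.94%, against 5.56%, of which 2.95% above) and 20 and 11 on high salt (3.32%, against 3.35%, of which 1.75% above). For HS_SCR against PRE_LS 40 and 44 members did (3.44%, against 2.7%, of which 1.23% above), for HS_DT against HS_SCR 25 and 43 (2.81%, against 2.58%, of which 1.3% above), and for HS_DT against PRE_LS 35 and 44 (3.26%, against 3.08%, of which 1.5% above). The shares of the members lay near those of all bins.

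The salt comparison in MCW asks which bins differ between rats on 4% and on 0.4% NaCl. The member with the smallest p was chr13:112239001-112239500, with 0, 0.541 and 0% in MCW_LS and 5, 2.56, 6.70 and 7.30% in MCW_HS, a difference of 5.21 ± 1.08 points (SE, unadjusted p = 0.000732 in the quasi-binomial model). Its groups did not overlap, but PRE_LS rats of the second experiment had 10, 1.16, 0.939 and 9.13%. The lower member with the smallest p was chr5:148112501-148113000, at 6.76, 5.68 and 9.26% in MCW_LS and 1.31, 2.47, 1.23 and 0.685% in MCW_HS, with an adjusted p of 0.705 for both members. The member 413 bp from Tbx6, a transcription factor of mesoderm, had 2.67, 2.15 and 0% in MCW_LS and 5.45, 9.46, 9.94 and 14.4% in MCW_HS. In CRL it had 4.96% ± 1.11 on low salt and 9.99% ± 4.17 on high salt (SD, n = 4 each), while PRE_LS and HS_SCR had 10.3% ± 4.21 and 11.9% ± 2.97 (SD, n = 4 each) and overlapped.

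For CRL salt the smallest p was at chr6:146737001-146737500, 4.07 kb from the start of Nudt14, a nucleotide-sugar hydrolase. CRL_LS rats had 5.49, 10, 6.84 and 6.48% and CRL_HS rats 23.8, 17.5, 20.9 and 16.5%, a difference of 12.5 ± 1.93 points (SE, adjusted p = 0.597 by the quasi-binomial model). MCW_LS rats had 8.23, 7.34 and 11.6% and MCW_HS rats 12.5, 15.4, 6.98 and 9.73%, which overlapped. HS_SCR and PRE_LS rats of the second experiment differ by the scrambled GapmeR and the time of sampling as well as by salt. There HS_SCR rats had 9.60, 3.45, 11.7 and 1.64% and PRE_LS rats 7.83, 6.20, 7.43 and 3.37%. These groups overlapped as well, and the CRL difference was not a call.

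Between the colonies, the base diet also differed on low salt. There the member chr7:11182001-11182500 had 11.1, 10.6 and 0% in MCW_LS and 0.735, 0, 0 and 0% in CRL_LS (adjusted p = 0.586 by the quasi-binomial model). Without the MCW_LS rat at 0, replicate 3, its adjusted p was 0.0245, and it was the 1 member called under any setting tried. In that fit 1 of 939 members was called (0.106%), against 145 of 32562 bins (0.445%). On high salt, where both colonies ate the same diet, the smallest p was at chr12:19045501-19046000, with 0% in all 4 MCW_HS rats and 3.77, 4.49, 5.17 and 10.1% in CRL_HS (adjusted p = 0.607 by the same model). CRL_LS rats overlapped with MCW_LS rats there, at 0, 3.23, 1.43 and 2.25% against 0, 0.803 and 0%. For the difference of salt effects, the smallest p was at Cstpp1 in chr3:87049501-87050000 (adjusted p = 0.747 by that model), with 0, 2.60 and 0% in MCW_LS, 0% in all MCW_HS and CRL_LS rats, and 2.38% ± 1.68 in CRL_HS (SD, n = 4). The member at Kiaa0319, a gene of neuronal migration, had 4.93% ± 1.88 (SD, n = 3) in MCW_LS, 9.97% ± 8.46 in MCW_HS, 15.2% ± 8.70 in CRL_LS and 1.57% ± 1.82 in CRL_HS (SD, n = 4 each), with an adjusted p of 0.797 by the quasi-binomial model.

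Among the rats of the second experiment, 1 member stood out in 2 comparisons that share the HS_SCR rats. The member chr9:25476001-25476500 had 6.71, 7.83, 6.58 and 9.12% in PRE_LS, 12.2, 14.1, 11.7 and 14.2% in HS_SCR, and 8.32, 8.91, 6.69 and 10.1% in HS_DT. HS_SCR minus PRE_LS was 5.51 ± 0.87 points (SE, unadjusted p = 0.000237) and HS_DT minus HS_SCR was -4.57 ± 0.95 points (SE, unadjusted p = 0.000823), with an adjusted p of 0.9997 for both by the quasi-binomial model. All 4 HS_SCR rats were above the other 8, and since they enter both differences, the 2 are not independent. The smallest p for HS_DT against HS_SCR was at chr3:171539501-171540000, with 6.37, 4.27, 2.76 and 5.25% in HS_SCR, 11.5, 10.3, 8.32 and 11.9% in HS_DT and 8.85, 6.95, 9.97 and 5.63% in PRE_LS. The lower member with the smallest p was chr2:9647001-9647500, at 7.02, 5.68, 6.41 and 8.11% in HS_SCR and 0, 1.75, 0.781 and 0.840% in HS_DT. The smallest p for HS_DT against PRE_LS was at chr3:176688001-176688500, with 7.72, 9.93, 8.96 and 8.29% in PRE_LS and 4.33, 4.07, 5.40 and 4.02% in HS_DT, a difference of -4.27 ± 0.57 points (SE, adjusted p = 0.661 by the same model).

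Some members held sites whose counts were equal to those of another position. The other position may be a neighbouring CpG on the same reads or a distant place to which the same reads were assigned. Which of these held was not tested, and neighbouring CpGs without methylated reads match easily. In 686 members (14.7%) at least 1 site had the same counts in all 12 libraries as another position, against 8.40% of the other isolated bins, and in 295 members all sites did. A member whose 9 sites all had such counts was chr1:96515001-96515500 at 2.74% ± 1.08 (SD, n = 12). The member chr9:105501001-105501500, the 9-site member with the most reads of the 6 named for their number of sites, had no such site and 2.84% ± 0.364 (SD, n = 12) in the second experiment and 3.53% ± 0.559 (SD, n = 15) in the first. Its depth was 2241 reads per site and library, the highest of all members, whose median was 87.9.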

How the data were processed

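RRBS was done on 27 libraries of rat outer medulla. The authors deposited 2 tables of counts, C and T reads per CpG and library per the file headers, with 1 row per CpG. Trimming used Trim Galore 0.2.5 and the build was rn5, per the submitters' processing notes. For the aligner, the caller and removal of duplicates, nothing is given in the sources used here. Groups were taken from the labels. Where the labels conflict on which MCW_LS library carries the letters RP, the column name was followed.

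Levels are 100 times summed C over summed C and T counts per bin and rat. The model was a quasi-binomial regression with dispersion moderated by squeezeVar of limma 3.58.1 and held at 1 or more, and a two-sided F test adjusted over all bins. It was checked on simulated counts, and how small a difference it could find is not reported here. Python 3.11.15, numpy 2.4.6, scipy 1.17.1, pandas 2.3.3, R 4.3.3 and matplotlib 3.10.9 were used. The tables were analysed separately.

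The members, gene lists and tests were chosen with earlier results of these data known. Regions named are, by rule, those with the most sites, the smallest p per comparison and direction, the highest first-experiment level, the longest runs, the largest SD over rats, and those nearest the threshold. The placement of promoters, the split by listed CpGs, the class of 5 to 10% and the promoter genes were added after the data were examined. Promoter windows of 300 bp needed at least 6 CpGs with 80% listed.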

Additional observations from a re-analysis of the deposited data

Results flagged for a closer look

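In 96 groups of 4 rats the highest or lowest value was compared with the rest, and in 6 (6.25%) it lay far from them. Chance flags about 1 in 20 groups of continuous values, a rate that does not hold where the other rats are all at 0. In chr1:181825501-181826000, 1 HS_DT rat had 11.8% and the others 8.63 to 8.96%. In chr9:24159001-24159500, 1 PRE_LS rat had 3.21% and the others 2.20 to 2.27%. At Epo, 1 CRL_LS rat had 12.6% and the others 7.35 to 7.83%. In the remaining 3 cases the other 3 rats were at 0. These were 1 HS_DT rat with 1.43% at Ptges, 1 PRE_LS rat with 0.680% at Cyp2j4 and 1 CRL_HS rat with 0.820% at Ephx1.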

How the results depend on the processing

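No member was called in any of the 8 comparisons under another window of pooled level, at least 20 reads, limma, unheld dispersion or with the replicate block, whose counts of called members were all 0. Without the RP libraries, run in the 4 comparisons they enter, the counts were 0 too. Leaving out each rat in turn gave 0 to 1 called members for the colonies on low salt and 0 to 0 elsewhere, and the 1 was without MCW_LS replicate 3, where 145 of 32562 bins (0.445%) and 1 of 939 members (0.106%) were called. Same-numbered rats did not deviate together (correlations of -0.0461 to 0.0235 in the first experiment and -0.0183 to 0.0201 in the second). Such small correlations do not settle whether the numbers mark a pairing of rats, which the labels do not state. With the replicate block, read as a mean of paired differences, the mean member level differed by 0.16 points for MCW salt and 0.10 for CRL salt, and no call changed. With at least 20 reads the mean member difference was 0.0197 points for MCW salt, -0.0148 for the colonies on high salt and -0.15 for the difference of salt effects, and among members of 5 to 10% it was 0.20 points for MCW salt and 1.05 for CRL salt. The cause was not tested. Without each rat in turn the mean difference ranged from 0.09 to 0.22 points for MCW salt, 0.06 to 0.15 for CRL salt, 0.02 to 0.12 and 0.06 to 0.19 for the colonies on low and high salt, -0.01 to 0.12 for the difference of salt effects, 0.03 to 0.12 for HS_SCR against PRE_LS, -0.15 to -0.06 for HS_DT against HS_SCR and -0.05 to -0.01 for HS_DT against PRE_LS. Among members of 5 to 10% it ranged from 0.72 to 1.01 for MCW salt, 0.58 to 0.85 for CRL salt and 0.12 to 0.29 for HS_SCR against PRE_LS.

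The number of members was 3694 at a level under 5%, 6640 under 20%, 4890 with at least 20 reads, 4744 without equal-count positions and 4135 to 5047 at distances of 5 and 1 kb. At 20 reads 3849 of the 4661 members remained. The share under 10% in the first experiment was 96.7 to 97.2% without each rat in turn, 95.002% with members of at least 1 site and 99.9% at a threshold of 20%. At 2 kb from a member the level with at least 20 reads was 47.9% in the second experiment and 56.5% in the first. Members with equal counts above the median depth numbered 320. At 20 reads 708 members were left in the first experiment, which limits what its depth can show.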

Other observations

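Of the 327 genes with a placed promoter at a member, 18 (5.50%) had names of zinc finger families (Zfp, Zim, Zscan, Zkscan or Zik), against 120 of 7209 genes with a placed promoter (1.66%). Without members that hold equal-count positions the number was 15. This group of genes was noticed in the list of members and was not tested. Members at placed promoters had a mean level of 0.997% ± 0.0509 in PRE_LS, 0.995% ± 0.130 in HS_SCR and 0.978% ± 0.0389 in HS_DT (SD, n = 4 each). The 5 members with the largest SD over the 12 rats, of 8.83 to 10.2 points, had 3 sites each and 616 to 1057 reads in all.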
